A study of Dendrobium catenatum with 16 samples.

Results

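The untreated plantlets of Dendrobium catenatum, a medicinal orchid grown in sterile culture, were sampled at 9 months and at 2 months of age, and these 4 of the 16 RNA-seq libraries of the series are described here. They were chosen by their labels as the libraries that received no growth regulator. At 9 months there was 1 library taken 2 weeks and 1 library taken 4 weeks after the start of the treatment series, both at 0 mg/L of the synthetic cytokinin 6-BA. At 2 months there were 2 biological replicates taken 3 weeks after the start, given distilled water. All plantlets had germinated on half-strength MS medium with sucrose, agar and potato, and young leaves, stems and shoots were collected together. The other 12 libraries received 6-BA, the synthetic auxin NAA or both. They are used here only to ask whether a difference between the ages also appeared in other libraries.

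Age, weeks after the start of treatment and sequencing experiment cannot be told apart in these samples, since every 9-month library came from one sequencing experiment and every 2-month library from the other. The 2 untreated 9-month libraries are 1 library each of 2 time points and not replicates of one, and the labels do not say that the 2-month replicates came from separate cultures. What the p-values measure is then the spread among these libraries, which may be technical.

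Orchid seeds have almost no endosperm, and a seedling first forms a protocorm before it makes leaves and shoots. Plants pass from a juvenile to an adult phase of shoot growth, and late embryogenesis abundant (LEA) proteins, which protect cells against water loss, are made in maturing seeds and, in leaves and stems, under abscisic acid or drought. Dendrobium stems are known for mannan polysaccharides, alkaloids, flavonoids and mannose-binding lectins.

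The 9-month libraries held 15655685 and 15243975 gene counts and the 2-month libraries 39390550 and 40077508, so low genes were measured less precisely at 9 months. The 2 tables were joined by gene name into 22701 genes. These held 96.23% and 97.03% of the counts of the 9-month libraries and at least 99.99% of those of the 2-month libraries. Genes for photosynthesis proteins, used as leaf markers, summed to 48637 and 24595 CPM (counts relative to library size, scaled by TMM) at 9 months and 42424 and 36266 CPM at 2 months, so leaf RNA was abundant at both ages. The 6 tested root markers summed to 89.6 and 165 CPM at 9 months and 92.5 and 85.2 CPM at 2 months. In whole organs, fewer cells of a type and less RNA per cell cannot be told apart. The 2 libraries of 9 months differed by more than 2-fold at 3158 of the genes tested (16.7%), while the 2 libraries of 2 months did so at 81 (0.428%).

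A gene was called where the quasi-likelihood test of edgeR gave an adjusted p under 0.05 (Benjamini-Hochberg, over all genes tested), the difference was at least 4-fold, and both 9-month libraries lay beyond both 2-month libraries in CPM and in their percentile rank by FPKM (a value per gene length) within the library. By this rule 115 of 18925 genes tested were higher at 9 months (0.608%) and 466 were lower (2.46%). Separation of the ages in these 4 libraries is a condition of every call, so it is no further result for a called gene. The median log2 fold change, 9 months over 2 months, was 0.03 over all genes tested. Leaving out either 2-month library ended every one of these calls, because the spread then came from the 9-month libraries of 2 and 4 weeks alone. Every count of called list members given below for untreated plantlets is likewise 0 without either of them. At an unadjusted p under 0.05, 469 genes were still higher and 1185 lower without replicate 1, and 431 and 1185 without replicate 2. Leaving out a 9-month library raised the counts, to 398 higher and 1334 lower without the 2-week library and to 437 and 1148 without the 4-week library. The split between the directions also moved with the unit. With log2(FPKM + 1) values, 62 genes were higher and 589 lower, so that 9.52% of calls were higher, against 19.8% with counts.

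The 10 largest rises at 9 months were spread over genes of many functions. A gene described as PYRICULARIA ORYZAE RESISTANCE 21-like, LOC110108206, had 42.7 and 61.5 CPM at 9 months, against 0.248 and 0.290 CPM at 2 months (log2 fold change 7.57, SE 0.34, edgeR adjusted p = 0.0141). The receptor-like protein Cf-9 homolog LOC110096116 had 50.8 and 34.4 CPM at 9 months, against 1.96 and 2.32 CPM at 2 months (log2 fold change 4.31, SE 0.30). The RPM1-like disease resistance gene LOC110094107 had 40.7 and 21.5 CPM at 9 months, against 1.81 and 1.83 CPM at 2 months (log2 fold change 4.09, SE 0.40). In each of these genes both 9-month libraries were far above both 2-month libraries. Receptor-like protein 35 (LOC114581209) rose by 4.34 on the log2 scale. The length implied by its 2-month counts and FPKM was 0.46 times that given with the 9-month libraries, so its gene model may differ.

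The auxin-binding protein ABP20-like gene LOC110094206, of the germin-like family, had 971 and 343 CPM at 9 months, against 14.6 and 7.36 CPM at 2 months (log2 fold change 5.90, SE 0.76, edgeR adjusted p = 0.0337). It was the most abundant of the 10 largest rises, and its 2 libraries at 9 months differed by more than its 2 libraries at 2 months. Serine carboxypeptidase-like genes, whose family includes acyltransferases that decorate plant metabolites, were named in the same group. LOC110112208 (type 18) had 47.1 and 25.8 CPM at 9 months, against 1.37 and 1.45 CPM at 2 months (log2 fold change 4.69, SE 0.40). LOC110096797 (type 15) had 37.2 and 12.1 CPM at 9 months, against 0.845 and 1.18 CPM at 2 months (log2 fold change 4.60, SE 0.68). The groups did not overlap in either gene, which the calling rule requires. The cytochrome P450 gene LOC110095638, described as 7-ethoxycoumarin O-deethylase-like, had 105 and 61.9 CPM at 9 months, against 3.33 and 5.87 CPM at 2 months (log2 fold change 4.18, SE 0.44). The UPF0481 gene LOC110099755, of unknown function, rose by 4.88 on the log2 scale.

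**Figure D1:**
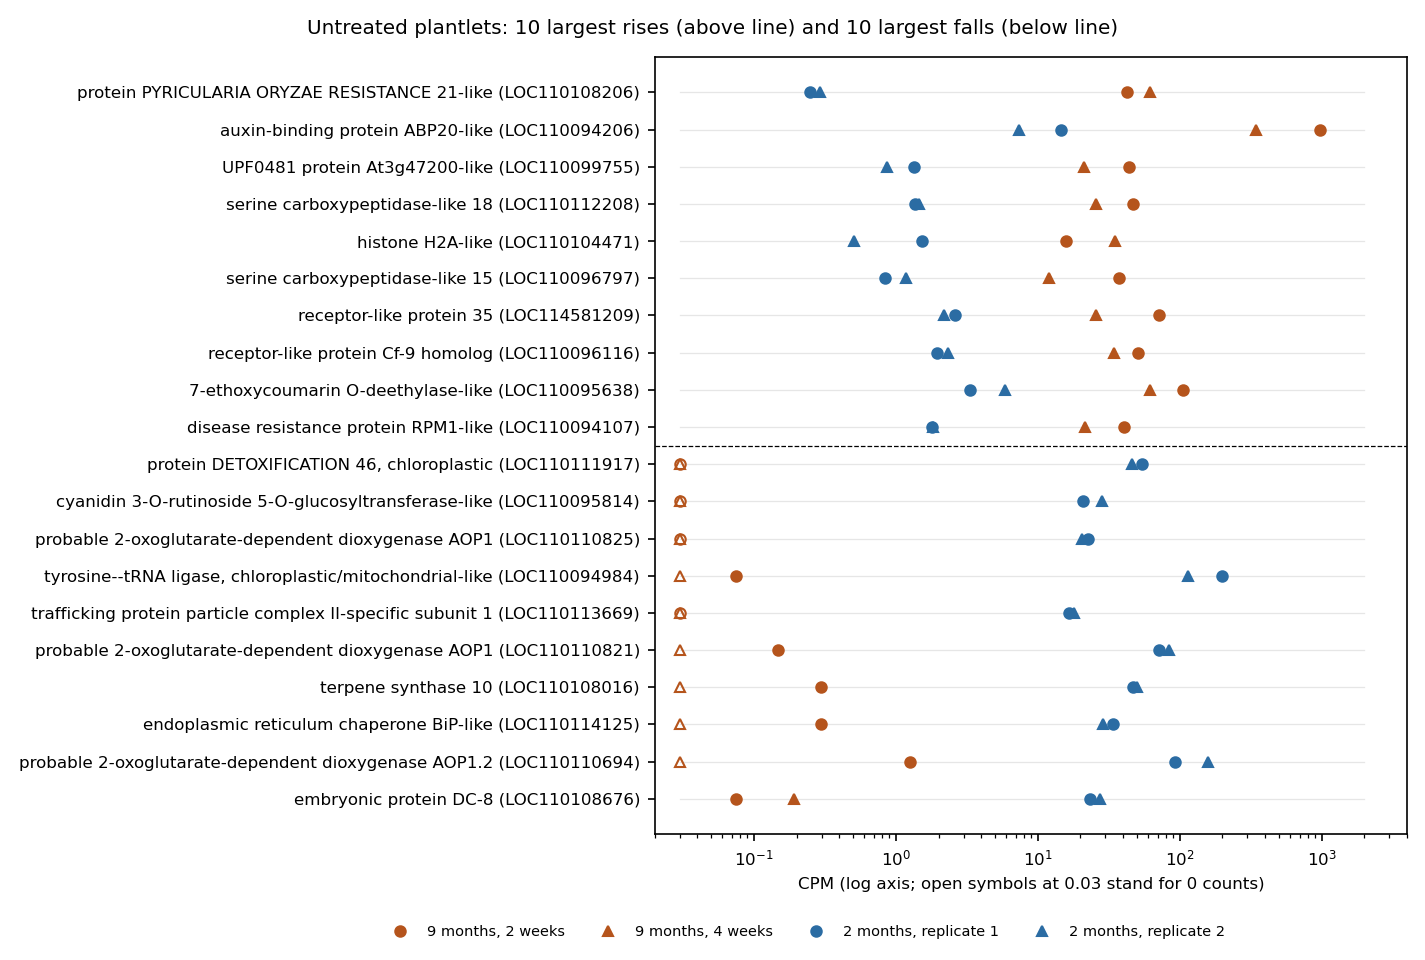
Levels of the 10 genes with the largest rises and the 10 with the largest falls at 9 months, in CPM on a log axis, with 1 point for each of the 4 untreated libraries; libraries at 0 are drawn at 0.03 CPM. Both 9-month points lie on the same side of both 2-month points for every gene, which the calling rule requires, and many of the falls are at or near 0 at 9 months.

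Among the largest falls, transcripts that were plain at 2 months were at or close to 0 at 9 months. Of the called genes, 41 that were lower had no count in either 9-month library, and 7 that were higher had no count in either 2-month library. For these a fold is given as a bound, against a floor of 3 counts per library and on plain library totals. DETOXIFICATION 46 (LOC110111917), a transporter of the MATE family, had 0 CPM in both 9-month libraries, against 54.4 and 45.9 CPM at 2 months, at least 234-fold lower. The length implied by its 2-month values was 0.959 times that given with the 9-month libraries, so its gene model may differ. A glucosyltransferase described as acting on cyanidin 3-O-rutinoside, LOC110095814, had 0 CPM in both, against 21 and 28.2 CPM, at least 106-fold lower. A subunit of the trafficking complex TRAPPII, LOC110113669, had 0 CPM in both, against 16.6 and 18.1 CPM, at least 83.9-fold lower. Their 2-month libraries lay close together.

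Other falls left a few counts at 9 months, and their folds are given with an exact 95% interval that covers counting error only. The organellar tyrosine tRNA ligase gene LOC110094984 had 0.0743 and 0 CPM at 9 months, against 199 and 114 CPM at 2 months, a fold of 4791 (interval 860 to 189267). A copy of the gene for BiP, the Hsp70 chaperone of the endoplasmic reticulum, LOC110114125, had 0.297 and 0 CPM at 9 months, against 33.7 and 28.7 CPM at 2 months. A second BiP-like gene, LOC110114129, overlaps it on the same strand and moved the other way, with 2171 and 812 CPM at 9 months, against 72.9 and 117 CPM at 2 months (log2 fold change 3.97, SE 0.64, edgeR adjusted p = 0.0497). How the counting shared reads between the overlapping pair is not known here, so the values of both are uncertain.

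Genes named for the dioxygenase AOP1 made up 3 of the 10 largest falls. LOC110110825 had 0 CPM in both 9-month libraries, against 22.6 and 20.5 CPM at 2 months, at least 105-fold lower. Its neighbour LOC110110821 had 0.149 and 0 CPM at 9 months, against 71.7 and 84.0 CPM at 2 months, a fold of 1196 (interval 331 to 9877). The AOP1.2 gene LOC110110694 had 1.26 and 0 CPM at 9 months, against 92.6 and 158 CPM at 2 months (log2 fold change -7.70, SE 1.08, edgeR adjusted p = 0.0399). All 3 were low in both 9-month libraries. In the 2-month libraries given 6-BA, with or without NAA, they had 0.362 to 1.55, 0.757 to 3.22 and 0.379 to 1.65 CPM. A low level of these genes was thus not particular to 9 months. In the comparison of ages with 6-BA at 1.0 mg/L, LOC110110825 was called lower and the other genes were not called. LOC110110825 and LOC110110821 lie within 50 kb of each other, so reads could be split between near copies.

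Of 48 tested late embryogenesis abundant and abscisic acid-related genes, 16 fell at 9 months and 0 rose, against 2.46% and 0.608% of all genes. The calls were mostly LEA genes, 17 of the 48 had a log2 fold change above 0, and the list's median log2 fold change was -0.59, against 0.03 for all genes. The list's count of lower calls lay between 13 and 18 under the alternatives other than leaving out a 2-month library, under which it was 0. LEA protein 1 (LOC110116055) had 17.7 and 13.3 CPM at 9 months, against 875 and 626 CPM at 2 months (log2 fold change -5.60, SE 0.35, edgeR adjusted p = 0.0141). The LEA D-29-like gene LOC110107445 had 13.7 and 21.3 CPM at 9 months, against 607 and 545 CPM at 2 months (log2 fold change -5.04, SE 0.34). The dehydrin DHN4-like gene LOC110116563, whose family binds water and membranes, had 72.5 and 50.3 CPM at 9 months, against 1391 and 944 CPM at 2 months (log2 fold change -4.25, SE 0.39, edgeR adjusted p = 0.0220). These 3 were abundant at 2 months and fell in both 9-month libraries; they were chosen after their values were seen.

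The members that the naming rule picked were lower still in relative terms. The 11 kDa LEA gene LOC110108916 had 0.669 and 1.28 CPM at 9 months, against 88.9 and 84.9 CPM at 2 months (log2 fold change -6.45, SE 0.33). The embryonic protein DC-8 gene LOC110108676 had 0.0743 and 0.192 CPM at 9 months, against 23.4 and 27.3 CPM at 2 months (log2 fold change -7.49, SE 0.42). LEA protein 18 (LOC110109106) had 0.743 and 0.511 CPM at 9 months, against 49.2 and 34.8 CPM at 2 months (log2 fold change -6.07, SE 0.35). In these 3 genes both 2-month libraries were above 20 CPM and both 9-month libraries near or below 1 CPM. LEA protein 18 sits beside 2 like genes, LOC110109107 and LOC110109108, which were also called lower. The list also held abscisic acid 8'-hydroxylase 3 (LOC110097017), which breaks the hormone down, at 1.11 and 0.894 CPM at 9 months, against 5.71 and 5.45 CPM at 2 months (log2 fold change -2.47).

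**Figure D2:**
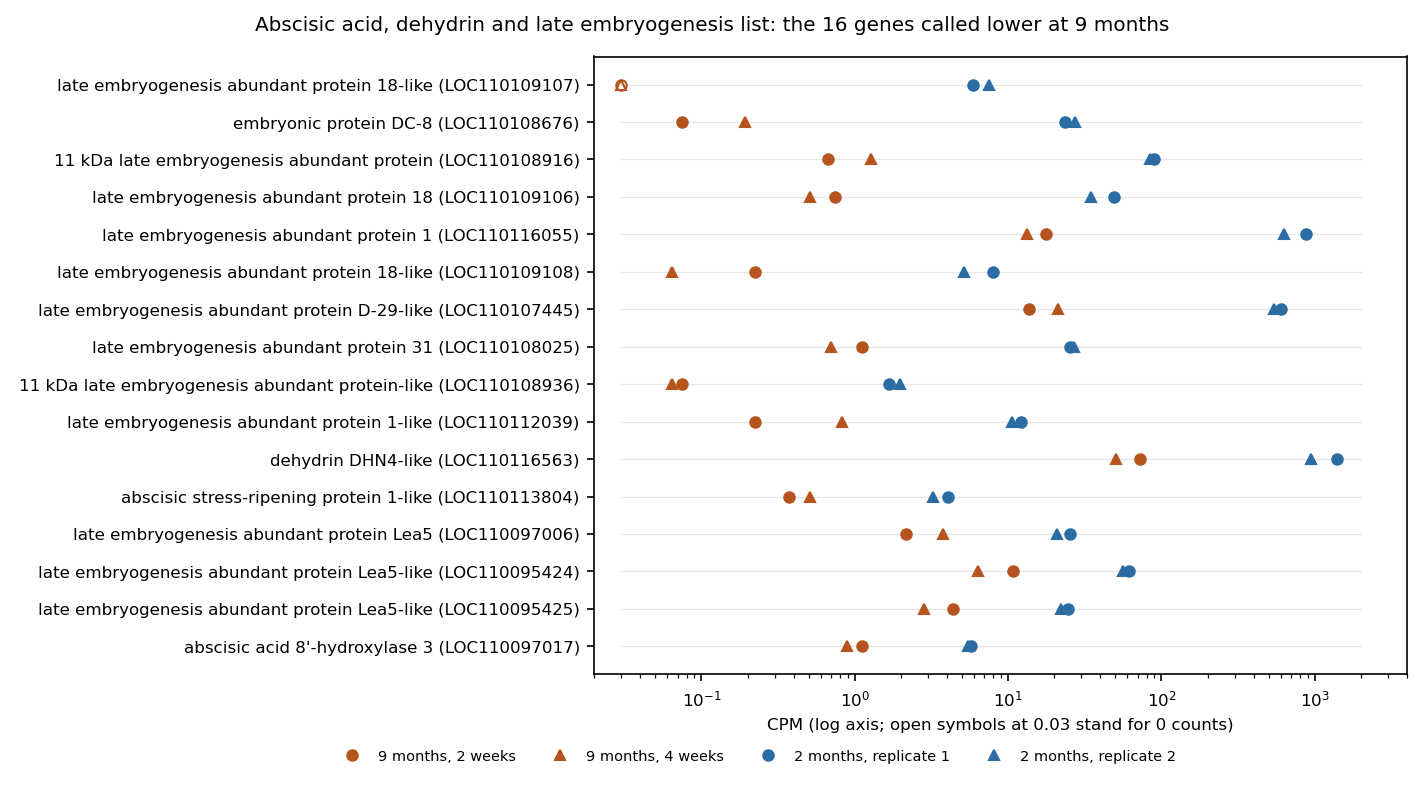
CPM, on a log axis, of the 16 late embryogenesis abundant and abscisic acid-related genes called lower at 9 months, with 1 point for each untreated library. LEA protein 1, the D-29-like gene and the dehydrin lie above 500 CPM in both 2-month libraries and below 100 CPM in both 9-month libraries.

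Markers of seed tissue were counted beside them. Of 22 tested seed markers, 12 were called lower, against 2.46% of all genes, and all 12 were LEA genes already counted above. The whole marker list summed to 742 and 485 CPM at 9 months and 2658 and 2261 CPM at 2 months. None of 11 storage protein and oil body genes was called by edgeR, although their median log2 fold change was -1.03. Of the 11, 8 had both 9-month libraries below both 2-month libraries, which 30.7% of all genes did. At an unadjusted p under 0.05, 5 were lower and 0 higher, and DESeq2 called 1 lower. The oleosin 16 kDa gene LOC110093821, which coats oil bodies, had 19.5 and 16.3 CPM at 9 months, against 70.4 and 57.4 CPM at 2 months (log2 fold change -1.84, SE 0.20, edgeR adjusted p = 0.0257), short of 4-fold. Its relative LOC110107776 had 5.05 and 1.02 CPM at 9 months, against 42.3 and 38.6 CPM at 2 months (log2 fold change -3.75, SE 0.73, edgeR adjusted p = 0.0664). Both oleosins were lower in each 9-month library. LOC110107776 was called lower with DESeq2, library size alone, both FPKM units, either 9-month library left out and the joint fit of 8 libraries with 6-BA. The part of seed-derived RNA in the fall of the LEA genes was not tested.

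In the WRKY family of plant transcription factors, 8 of 53 tested genes were called lower and 1 higher, against 2.46% and 0.608% of all genes, the median log2 fold change was -1.12, and 40 of 53 had both 9-month libraries below both 2-month libraries, which 30.7% of all genes did. Between 5 and 18 WRKY genes were lower under the alternatives that kept both 2-month libraries. WRKY 40 (LOC110114655), a regulator of defence and abscisic acid responses, had 4.09 and 4.09 CPM at 9 months, against 87.8 and 87.6 CPM at 2 months (log2 fold change -4.42, SE 0.17, edgeR adjusted p = 0.0141). WRKY 53 (LOC110093969), known in Arabidopsis for leaf senescence, had 0.743 and 1.15 CPM at 9 months, against 15.4 and 16.6 CPM at 2 months (log2 fold change -4.06, SE 0.33). The ages did not overlap in either gene, which the calling rule requires, and WRKY 40 was nearly equal within each age. The single WRKY gene that rose, LOC110098608, stayed low, at 1.19 and 1.53 CPM at 9 months and 0.0994 and 0.121 CPM at 2 months. In the comparison of ages with 6-BA at 1.0 mg/L, 3 of 53 WRKY genes were called lower and 1 higher. The shares of all genes there were 7.25% and 1.95%, and the list's median log2 fold change was -0.18.

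In the NAC family of plant transcription factors, 4 of 66 tested genes were called lower and 0 higher, against 2.46% and 0.608% of all genes. The NAC 68-like gene LOC110098761 had 22 and 28.2 CPM at 9 months, against 257 and 228 CPM at 2 months (log2 fold change -3.27, SE 0.22, edgeR adjusted p = 0.0146). NAC 68 (LOC110092932) had 27.4 and 29.6 CPM at 9 months, against 148 and 147 CPM at 2 months (log2 fold change -2.37, SE 0.16). Neither gene's ages overlapped, which the calling rule requires.

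Jasmonate and ethylene lists held 5 lower calls each, of 39 and 113 tested genes, and 0 higher calls, where 2.46% of all genes were lower; the ethylene count is close to that share. In the jasmonate list, 3 of the calls were genes for TIFY 5A or a like protein, a repressor of jasmonate signalling that jasmonate itself induces in Arabidopsis. LOC110103420 had 0.297 and 0.255 CPM at 9 months, against 14.4 and 11.4 CPM at 2 months (log2 fold change -5.53, SE 0.37, edgeR adjusted p = 0.0146). Another, LOC110110139, had 0.149 and 0.319 CPM at 9 months, against 9.44 and 8.50 CPM at 2 months. This gene overlaps another on the same strand, so its values are uncertain. For ethylene, the ACC oxidase gene LOC110104247, which carries out the last step of its synthesis, had 0.520 and 0.894 CPM at 9 months, against 12.0 and 10.3 CPM at 2 months (log2 fold change -3.96, SE 0.39). The ERF gene LOC110106428 had 4.01 and 3.45 CPM at 9 months, against 23.5 and 19.2 CPM at 2 months (log2 fold change -2.51, SE 0.25). All of these genes were low at 9 months, and the 2-month libraries were within a narrow range of each other.

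Growth hormone lists held 1 or 2 calls each, beside 2.46% lower and 0.608% higher among all genes. Of 33 tested gibberellin genes, 2 were called lower, both small cysteine-rich peptides of the gibberellin-regulated GASA family. LOC114580039 had 0.446 and 0.894 CPM at 9 months, against 21.1 and 21.4 CPM at 2 months (log2 fold change -4.96, SE 0.39, edgeR adjusted p = 0.0170). LOC110103870 had 2.38 and 2.49 CPM at 9 months, against 31.1 and 57.1 CPM at 2 months (log2 fold change -4.18, SE 0.39). Of 101 tested auxin genes, the ABP20-like gene was the 1 called higher and SAUR71-like (LOC110115394), at 0 and 0.0639 CPM at 9 months, against 2.63 and 3.98 CPM at 2 months, the 1 called lower. Of 52 cytokinin genes, 1 was called, a pseudo histidine-containing phosphotransfer gene (LOC110109938), whose family blocks cytokinin signalling. It had 11.1 and 8.88 CPM at 9 months, against 2.48 and 2.05 CPM at 2 months (log2 fold change 2.14, SE 0.30, edgeR adjusted p = 0.0398). That call was also lost with log2(FPKM + 1) and log2(FPKM + 0.1), at log2 fold changes of 1.43 and 1.83, and without the 2-week library of 9 months, at 1.97.

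Of 52 tested flavonoid genes, 9 were called lower and 0 higher at 9 months, against 2.46% and 0.608% of all genes (median log2 fold change -0.84, with 15 of 52 above 0). The flavanone 3-hydroxylase gene LOC110097388, described as naringenin,2-oxoglutarate 3-dioxygenase, had 11.4 and 4.79 CPM at 9 months, against 76.9 and 112 CPM at 2 months (log2 fold change -3.55, SE 0.50, edgeR adjusted p = 0.0398). The leucoanthocyanidin dioxygenase gene LOC110103723, which forms anthocyanidins, had 4.24 and 1.66 CPM at 9 months, against 26.7 and 41.4 CPM at 2 months (log2 fold change -3.54, SE 0.53). The flavonol synthase-like gene LOC110097219 had 5.20 and 2.55 CPM at 9 months, against 47.5 and 51.8 CPM at 2 months (log2 fold change -3.69, SE 0.38). In these 3 genes, chosen after their values were seen, the 4-week library was the lower of the 2 at 9 months. The glucosyltransferase LOC110093388 had 8.77 and 12.3 CPM at 9 months, against 74.6 and 90.6 CPM at 2 months (log2 fold change -2.97, SE 0.25). With the bound for LOC110095814 given above, 4 of the 9 lower calls were described as cyanidin 3-O-rutinoside 5-O-glucosyltransferase.

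The phenylpropanoid and lignin list went both ways, with 6 of 84 tested genes lower and 2 higher, against 2.46% and 0.608% of all genes. A caffeoyl-CoA O-methyltransferase gene, LOC110092470, of the lignin branch, had 13.8 and 18.8 CPM at 9 months, against 186 and 221 CPM at 2 months (log2 fold change -3.64, SE 0.25, edgeR adjusted p = 0.0146). A cinnamyl alcohol dehydrogenase gene, LOC110103062, had 6.69 and 7.28 CPM at 9 months, against 57.0 and 73.2 CPM at 2 months (log2 fold change -3.22, SE 0.21). The 2 that rose were a cinnamate 4-monooxygenase-like gene, LOC110098613, at 34 and 23.0 CPM at 9 months and 5.37 and 6.66 CPM at 2 months, and dirigent protein 22-like, LOC110107493, at 33.4 and 24.9 CPM at 9 months and 3.43 and 3.84 CPM at 2 months.

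Of the genes described as alkaloid or terpenoid enzymes, 6 of 33 and 4 of 54 tested were called lower, against 2.46% of all genes, and 0 were called higher, against 0.608%. The tropinone reductase-like gene LOC110105464 had 0.520 and 0.894 CPM at 9 months, against 24.3 and 40.1 CPM at 2 months (log2 fold change -5.48, SE 0.45, edgeR adjusted p = 0.0188). The berberine bridge enzyme-like 22 gene LOC110114662 had 0.446 and 0.702 CPM at 9 months, against 8.62 and 8.64 CPM at 2 months (log2 fold change -3.89, SE 0.37). Such descriptions come from similarity to enzymes of other plants, and the products in this orchid are not known from these files. The HMG-CoA reductase-like gene LOC110104601, the committed step of the mevalonate route to sterols and sesquiterpenes, had 0.818 and 0.766 CPM at 9 months, against 31.7 and 29.8 CPM at 2 months (log2 fold change -5.27, SE 0.24). Terpene synthase 10 (LOC110108016) had 0.297 and 0 CPM at 9 months, against 46.6 and 50.3 CPM at 2 months. Its relative LOC110108050 stayed well expressed, with 52.4 and 47.5 CPM at 9 months, against 259 and 222 CPM at 2 months (log2 fold change -2.27, SE 0.19). All 4 terpenoid calls were lower in both 9-month libraries, which the calling rule requires, and the list's median log2 fold change was -0.03.

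Of 81 tested peroxidases and glutathione transferases, enzymes of oxidative stress and detoxification, 12 were called lower and 0 higher, against 2.46% and 0.608% of all genes, and 27 had a log2 fold change above 0. The neighbouring peroxidase P7 genes moved together. LOC110096932 had 0.372 and 0.511 CPM at 9 months, against 22.4 and 30.1 CPM at 2 months (log2 fold change -5.87, SE 0.35, edgeR adjusted p = 0.0141). LOC110096933 had 0.595 and 0.511 CPM at 9 months, against 15.9 and 18.8 CPM at 2 months (log2 fold change -4.97, SE 0.31). Reads could be split between this pair. Of the 12 genes, 9 were glutathione transferases by description. Among these, GSTU17 (LOC110092849), chosen after its values were seen, had 31.8 and 39.4 CPM at 9 months, against 298 and 337 CPM at 2 months (log2 fold change -3.16, SE 0.22).

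Heat shock proteins and chaperones held 10 lower calls and 1 higher among 130 tested genes, against 2.46% and 0.608% of all genes, with a median log2 fold change of -0.12. Small heat shock proteins, which hold unfolding proteins, were among the lower calls. The 17.4 kDa class III gene LOC110097211 had 27.4 and 26.3 CPM at 9 months, against 189 and 169 CPM at 2 months (log2 fold change -2.74, SE 0.17, edgeR adjusted p = 0.0141). The higher call was the BiP-like gene LOC110114129 of the overlapping pair. HSPRO2 (LOC110094158), a nematode resistance-like gene that entered the list by the letters of its name and is no chaperone, had 15.1 and 12.8 CPM at 9 months, against 112 and 104 CPM at 2 months (log2 fold change -2.95, SE 0.18).

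Of 164 tested cell wall genes, 5 were lower and 2 higher, near the shares of 2.46% and 0.608% among all genes. Of the lower calls, 3 were xyloglucan endotransglucosylase/hydrolase 23-like genes, which cut and rejoin wall xyloglucan. LOC110102811 had 5.57 and 4.73 CPM at 9 months, against 116 and 123 CPM at 2 months (log2 fold change -4.54, SE 0.19, edgeR adjusted p = 0.0141). LOC110092885 had 16.2 and 19.3 CPM at 9 months, against 199 and 210 CPM at 2 months (log2 fold change -3.53, SE 0.19). The third, LOC110102810, had 10.6 and 14.2 CPM at 9 months, against 94.9 and 117 CPM at 2 months. The levels of the 3 are uncertain where reads fit more than 1 copy. The 2 rises were a pectinesterase (LOC110092954), at 72.6 and 133 CPM at 9 months and 13.8 and 13.0 CPM at 2 months, and pectin acetylesterase 9 (LOC110111894).

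The nitrogen, phosphate starvation, and sucrose and starch lists held 2 lower and 0 higher calls each, beside 2.46% and 0.608% of all genes. With so few calls, no direction is read for the lists. Nitrite reductase (LOC110092533), the chloroplast step of nitrate assimilation, had 211 and 216 CPM at 9 months, against 1454 and 1381 CPM at 2 months (log2 fold change -2.73, SE 0.27, edgeR adjusted p = 0.0221). Asparagine synthetase (LOC110107927), which stores nitrogen as asparagine, had 322 and 183 CPM at 9 months, against 2067 and 2010 CPM at 2 months (log2 fold change -3.01, SE 0.42, edgeR adjusted p = 0.0398). They were the 2 lower calls of 78 tested nitrogen genes, near the background share of 2.46%. Of 46 phosphate starvation genes 2 were lower, among them purple acid phosphatase 18-like (LOC110116655) at 0 and 0.0639 CPM at 9 months, against 2.26 and 2.15 CPM at 2 months. Of 56 sucrose and starch genes 2 were lower, including alpha-amylase isozyme 3D (LOC110106284), a starch-cutting enzyme, at 1.56 and 1.28 CPM at 9 months, against 12.2 and 15.4 CPM at 2 months (log2 fold change -3.28, SE 0.31). The insoluble beta-fructofuranosidase gene LOC110096666 had 7.95 and 9.71 CPM at 9 months, against 34.4 and 35.6 CPM at 2 months, with a log2 fold change of -1.98 just short of the size required.

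Disease resistance and chitinase genes changed in both directions, with 8 of 231 tested called higher and 23 lower, against 0.608% and 2.46% of all genes, and their median log2 fold change was 0.03. The lower calls ranged from -11.54 to -2.03 on the log2 scale and the higher ones from 2.30 to 4.09. The NBS-LRR gene LOC110115037 had 0.966 and 1.60 CPM at 9 months, against 42.1 and 53.5 CPM at 2 months (log2 fold change -5.20, SE 0.33, edgeR adjusted p = 0.0141). The RPP13-like gene LOC110108312 had 0.892 and 0.639 CPM at 9 months, against 20.4 and 24.2 CPM at 2 months (log2 fold change -4.87, SE 0.31). The RGA2-like gene LOC110106107 had 0 CPM in both 9-month libraries, against 12.9 and 14.0 CPM at 2 months, at least 64.8-fold lower. In the other direction, the RGA2-like gene LOC110097711 had 124 and 86.1 CPM at 9 months, against 15.3 and 16.2 CPM at 2 months (log2 fold change 2.74). All 8 higher calls were resistance genes by description, while the lower calls also held chitinases such as endochitinase EP3-like LOC110097024, at 0.669 and 0.766 CPM at 9 months, against 20.1 and 13.8 CPM at 2 months. Such genes form large families of near copies, so counts of single members are uncertain.

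**Figure D3:**
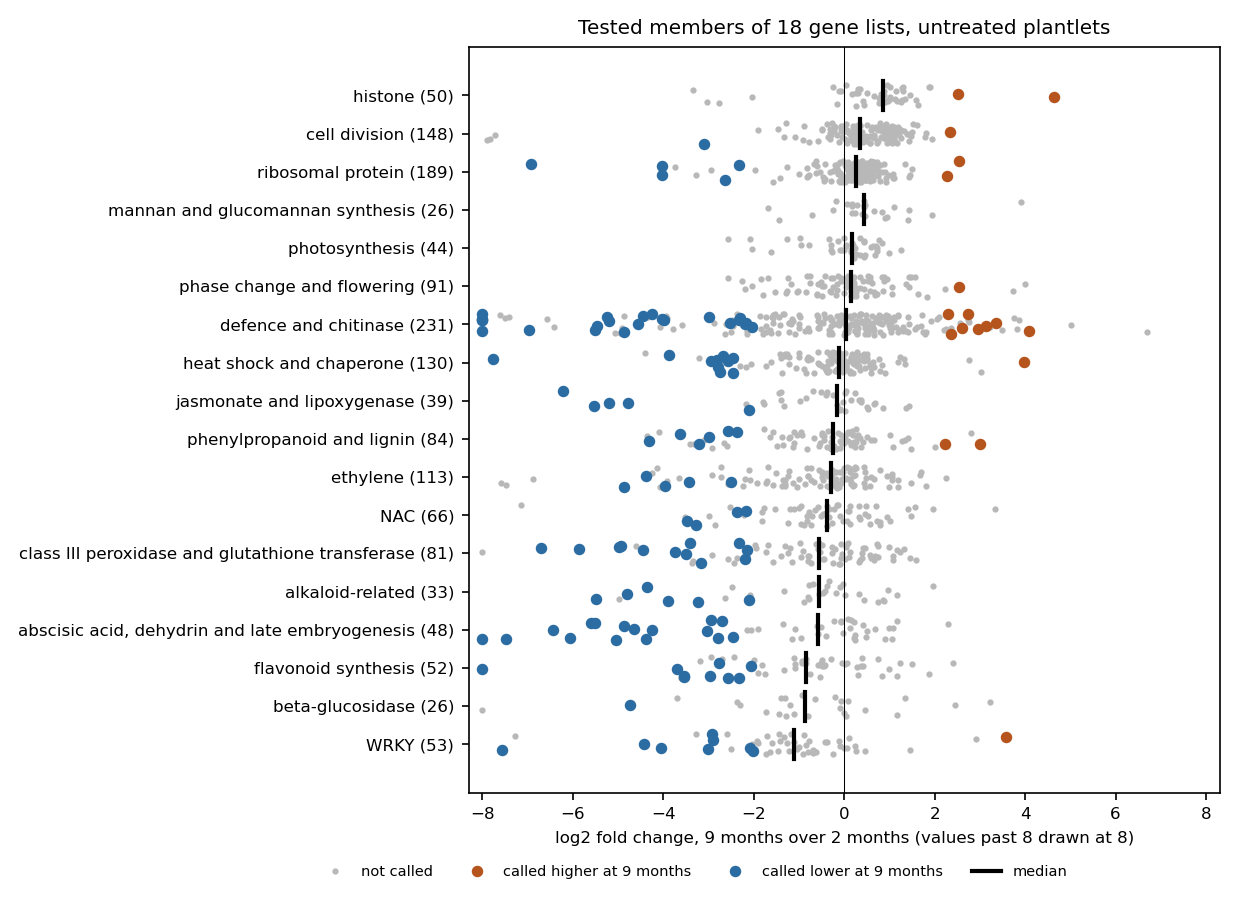
Log2 fold change, 9 months over 2 months, of every tested member of 18 gene lists in untreated plantlets, 1 point a gene, with values past 8 drawn at 8, called genes coloured and the list median as a bar. The WRKY median lies lowest, at -1.12, and the histone median highest, at 0.86.

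Of 50 tested histone genes, 2 were called higher and 0 lower at 9 months, against 0.608% and 2.46% of all genes, the median log2 fold change was 0.86, and 35 had both 9-month libraries above both 2-month libraries, which 27.3% of all genes did. That median rested largely on the 4-week library, since it was 0.38 without it and 1.23 without the 2-week library, and it was 0.03 in the joint fit of 8 libraries with 6-BA. Histone H1 (LOC110099118), the linker histone, had 81.3 and 109 CPM at 9 months, against 17.6 and 15.7 CPM at 2 months (log2 fold change 2.51, SE 0.21, edgeR adjusted p = 0.0191). The histone H2A-like gene LOC110104471 had 15.9 and 34.8 CPM at 9 months, against 1.54 and 0.507 CPM at 2 months (log2 fold change 4.63, SE 0.73, edgeR adjusted p = 0.0481). Histone H4 (LOC110106735) had 78.9 and 99.5 CPM at 9 months, against 27.1 and 20.6 CPM at 2 months, with a log2 fold change of 1.90 below the size required. In all 3 the 4-week library was the higher of the 2 at 9 months. Histone genes are near-identical copies, so counts of single genes are uncertain.

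Of 148 cell division genes, 70 had both 9-month libraries above both 2-month libraries, which 27.3% of all genes did. In this list 1 was called higher and 1 lower, against 0.608% and 2.46% of all genes, and the median log2 fold change was 0.36. Without the 4-week library the median was 0.04, without the 2-week library it was 0.79, and in the joint fit it turned to -0.36. The list summed to 4258 CPM in the 2-week and 6466 CPM in the 4-week library of 9 months, against 3978 and 4004 CPM at 2 months. The catalytic subunit of DNA polymerase epsilon (LOC110113617), of the replication fork, had 232 and 208 CPM at 9 months, against 41.6 and 44.6 CPM at 2 months (log2 fold change 2.35, SE 0.17, edgeR adjusted p = 0.0168). With log2(FPKM + 1) its log2 fold change was 1.92, short of the size required. The small subunit of DNA polymerase delta (LOC110097470) had 1.04 and 1.15 CPM at 9 months, against 8.99 and 10.1 CPM at 2 months (log2 fold change -3.11, SE 0.30). Of 189 ribosomal protein genes, 2 were higher and 5 lower, near the background shares of 0.608% and 2.46%. L39 (LOC110102435) had 99.1 and 150 CPM at 9 months, against 21.9 and 20.9 CPM at 2 months (log2 fold change 2.54, SE 0.26), while S27a (LOC110099179) had 17.0 and 15.1 CPM at 9 months, against 89.5 and 70.8 CPM at 2 months (log2 fold change -2.32, SE 0.20).

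Among regulators of phase change and shoot patterning, a pair of genes rose. JOINTLESS (LOC110102969), a MADS-box gene of the SVP group known in tomato for the pedicel joint and inflorescence growth, had 52.7 and 58.7 CPM at 9 months, against 11 and 8.33 CPM at 2 months (log2 fold change 2.53, SE 0.22, edgeR adjusted p = 0.0194). It was the 1 call among 91 phase change and flowering genes, where 0.608% of all genes were called higher. SVP itself (LOC110108289), a floral repressor in Arabidopsis, had 44.4 and 43.3 CPM at 9 months, against 13.1 and 15.3 CPM at 2 months, a log2 fold change of 1.63 that fell short of the size required. The gene G1-like4 (LOC110094977), of the ALOG family, had 24.2 and 33.9 CPM at 9 months, against 4.74 and 4.30 CPM at 2 months (log2 fold change 2.68, SE 0.26, edgeR adjusted p = 0.0221). It was the 1 call among 66 meristem and leaf patterning genes, again beside 0.608% of all genes. The class I KNOX gene LOC110107145, of the family that keeps shoot meristems, had 43.9 and 56.5 CPM at 9 months, against 12.1 and 17.1 CPM at 2 months, a log2 fold change of 1.78. Of 23 clock genes, 1 was called lower, against 2.46% of all genes. It was APRR9 (LOC110101667), a morning-phased repressor, at 8.92 and 8.24 CPM at 9 months, against 54.6 and 52.8 CPM at 2 months (log2 fold change -2.65, SE 0.17). The labels give no hour of sampling, and its part in the APRR9 difference was not tested. The 9 tested flower markers held no edgeR call, had 1 higher and 1 lower at an unadjusted p under 0.05 and 1 lower by DESeq2, and summed to 311 and 98.6 CPM at 9 months and 214 and 160 CPM at 2 months.

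Mannose-specific lectins, carbohydrate-binding storage and defence proteins, were among the genes with the highest FPKM at 9 months, and the most abundant of them did not pass the rule. LOC110104045, a mannose-specific lectin, had 36446 and 2280 CPM at 9 months, against 50.1 and 347 CPM at 2 months (log2 fold change 6.61, SE 2.02, edgeR adjusted p = 0.142). LOC110101453 had 34908 and 2189 CPM at 9 months, against 110 and 183 CPM at 2 months (log2 fold change 6.98, SE 1.74, edgeR adjusted p = 0.102). Both 9-month libraries of these 2 genes were above both 2-month libraries, and the 2-week library was far above the 4-week library. Both were called higher with DESeq2, with either 9-month library left out and in the joint fit of 8 libraries, and with 6-BA alone (log2 fold changes 10.62 and 9.80). Over all 16 libraries LOC110104045 was at or above 2181 CPM at 9 months and at or below 338 CPM at 2 months, and LOC110101453 at or above 2094 CPM and at or below 178 CPM. LOC110113712 was called, with 275 and 563 CPM at 9 months, against 39.2 and 56.4 CPM at 2 months (log2 fold change 3.13, SE 0.45, edgeR adjusted p = 0.0414). LOC110114174 was called in the other direction, with 0.223 and 0.192 CPM at 9 months, against 10.9 and 12.2 CPM at 2 months (log2 fold change -5.77). In the 2-month libraries given 6-BA it was also low, at 0.075 to 0.785 CPM. Of the 22 tested lectin genes no other was called, beside 0.608% higher and 2.46% lower among all genes. The list summed to 77104 and 11982 CPM at 9 months and 1995 and 2671 CPM at 2 months.

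Several groups for which Dendrobium is cultivated or which make up the bulk of leaf RNA held 1 call or none. None of 26 mannan genes was called by edgeR or DESeq2, 5 were higher and 0 lower at an unadjusted p under 0.05, and the median log2 fold change was 0.43. Of the 26, 12 had both 9-month libraries above both 2-month libraries, which 27.3% of all genes did. The glucomannan synthase gene LOC110102411 had 62.1 and 54.1 CPM at 9 months, against 31.3 and 33.9 CPM at 2 months (log2 fold change 0.83, edgeR adjusted p = 0.0651). LOC110108619 had 161 and 232 CPM at 9 months, against 84.0 and 98.4 CPM at 2 months (log2 fold change 1.11, edgeR adjusted p = 0.0866). Both were higher in each 9-month library, with adjusted p-values that missed the threshold. Of 26 beta-glucosidase genes, 16 had both 9-month libraries below both 2-month libraries, which 30.7% of all genes did. In this list 1 was called lower, against 2.46% of all genes. It was LOC110113000, at 0.149 and 0.447 CPM at 9 months, against 11.3 and 5.19 CPM at 2 months (log2 fold change -4.73, SE 0.72, edgeR adjusted p = 0.0443). Of 27 cellulose synthase genes, 1 was called lower, again beside 2.46% of all genes. None of 44 photosynthesis genes was called by edgeR, 2 were higher and 6 lower at an unadjusted p under 0.05, and DESeq2 called 3 lower. Of the 44, 28 had a log2 fold change above 0 and 16 below. The chlorophyll a-b binding gene LOC110108616 had 447 and 271 CPM at 9 months, against 1176 and 1025 CPM at 2 months. Another, LOC110099193, had 594 and 242 CPM at 9 months, against 1861 and 1677 CPM at 2 months. Their log2 fold changes were -1.62 and -2.08 (edgeR adjusted p = 0.0832 and 0.105). None of 13 chlorophyll synthesis, 5 metallothionein or 19 hypoxia genes was called by edgeR either, and at an unadjusted p under 0.05 there were 1, 1 and 3 higher and 1, 0 and 2 lower; DESeq2 called 1 metallothionein gene higher and 1 hypoxia gene in each direction. The RuBisCO small chain gene LOC110109052 had 11363 and 4769 CPM at 9 months and 5620 and 4261 CPM at 2 months, and its groups overlapped.

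The same difference between the ages was then measured in libraries not used above, the plantlets given 6-BA at 1.0 mg/L, with 1 library each of 2 and 4 weeks at 9 months and 2 replicates of 3 weeks at 2 months. These share no library with the untreated comparison but carry the same split by sequencing experiment. In them 370 of 18983 genes were higher at 9 months (1.95%) and 1376 were lower (7.25%). Without replicate 1 of 2 months these counts were 38 and 147 and without replicate 2 they were 36 and 159, while without the 2-week library of 9 months they were 551 and 1706 and without the 4-week library 451 and 1954. Among the 18742 genes tested in both, 75 were higher in both, which is 67% of the untreated calls and 21.3% of those with 6-BA. Lower in both were 226 genes, 49% of the untreated calls and 16.8% of those with 6-BA. In opposite directions were 2 genes, higher untreated and lower with 6-BA. Across genes, which are not independent replicates, the log2 fold changes of the 2 comparisons had a Pearson r of 0.57.

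Of the 16 late embryogenesis and abscisic acid-related genes called lower, 11 were also called lower with 6-BA, as were 16 of 23 lower and 6 of 8 higher disease resistance and chitinase genes and 6 of 9 flavonoid genes. Of the 8 lower WRKY genes 2 were also called lower with 6-BA and 6 had the same sign, and of the 12 lower peroxidase and glutathione transferase genes 3 were called and 11 had the same sign. No test compared these shares, which stand beside 49% of all genes called lower and 67% of those called higher. The counts of same signs stand beside 440 of 461 for all genes called lower. The cytochrome P450 gene LOC110095638 had a log2 fold change of 0.70 with 6-BA and 4.18 in untreated plantlets, and the beta-glucosidase LOC110113000 had 0.69 with 6-BA and -4.73 in untreated plantlets. Tested over the 8 libraries, these differences of -3.48 (SE 0.69, edgeR adjusted p = 0.0589) and 5.42 (SE 2.07, edgeR adjusted p = 0.223) missed the threshold.

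**Figure D4:**
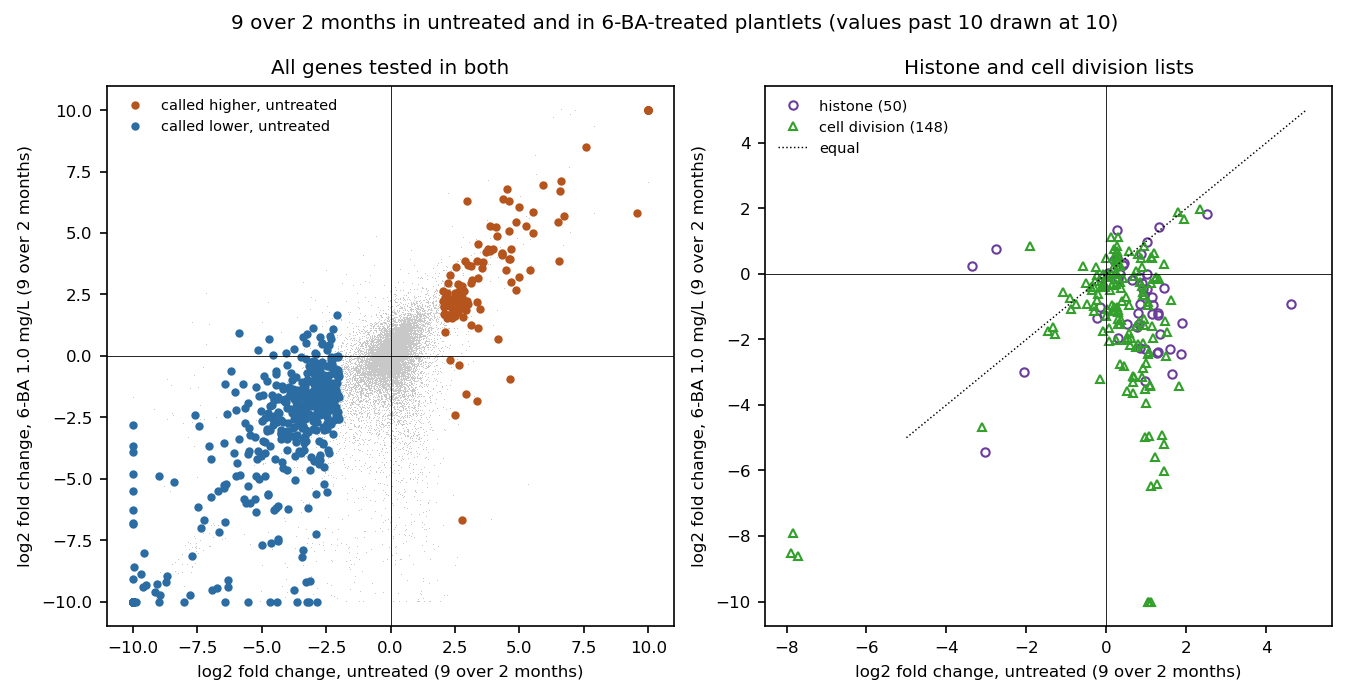
Log2 fold change, 9 months over 2 months, in plantlets given 6-BA at 1.0 mg/L (vertical axis) against that in untreated plantlets (horizontal axis), 1 point a gene, with values past 10 drawn at 10; the left panel shows all genes tested in both with those called in untreated plantlets coloured, the right panel the histone and cell division lists. Of the coloured points in the left panel, 105 of 112 higher and 440 of 461 lower ones have the same sign with 6-BA, and many points in the right panel lie below the line of equal values. The share of same signs over all genes was not counted. Both comparisons carry the same split by sequencing experiment, so these counts lend no weight to the calls.

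The difference of the 2 age comparisons was tested over their 8 libraries, a test added after seeing the data. At an adjusted p under 0.05 for that difference, the log2 fold change of 9 over 2 months was higher with 6-BA than without at 54 of 19185 genes (0.281%) and lower at 338 (1.76%). The lower group held 13 of 50 histone genes, with a list median difference of -1.53, and 30 of 148 cell division genes, with a median difference of -1.20. With 6-BA, 10 of 50 histone genes and 39 of 150 cell division genes were called lower at 9 months and 0 higher. In that comparison 7.25% of all genes were called lower and 1.95% higher. Histone H4 (LOC110106735) had a log2 fold change of -1.49 with 6-BA and 1.90 in untreated plantlets, a difference of -3.40 (SE 0.28, edgeR adjusted p = 0.0065).

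Levels in all 16 libraries, which mix ages with NAA and 6-BA treatments, were then read as a description. Of all genes tested, 1283 had all 8 libraries of 9 months above all 8 of 2 months (6.78%) and 1962 had them below (10.4%). Of the genes called in untreated plantlets, 94 of the 115 higher and 339 of the 466 lower were separated in this way. The calling rule already requires that separation in the untreated libraries, which are among the 16. The shares of called genes therefore cannot be compared with the 6.78% and 10.4% of all genes, and they lend no weight to the calls. There were 30 genes at 0 in all 8 libraries of 9 months with at least 1 CPM in all 8 of 2 months, and 2 genes in the reverse. DETOXIFICATION 46 (LOC110111917) was among the 30, with 44.6 to 60.6 CPM (scaled by TMM over the 16 libraries) over the 8 libraries of 2 months, as were LOC110095814 and LOC110113669. The reverse pair were an uncharacterized gene and serine carboxypeptidase-like 13 (LOC114578808), chosen after its values were seen, at 5.02 to 23.0 CPM over the 9-month libraries. In untreated plantlets it had 18.2 and 12.2 CPM at 9 months and 0 in both 2-month libraries, at least 170-fold higher. A gene read in every library of 1 experiment and in none of the other can differ by age, by plant material or by how the tables were made, and these cannot be told apart.

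**Figure D5:**
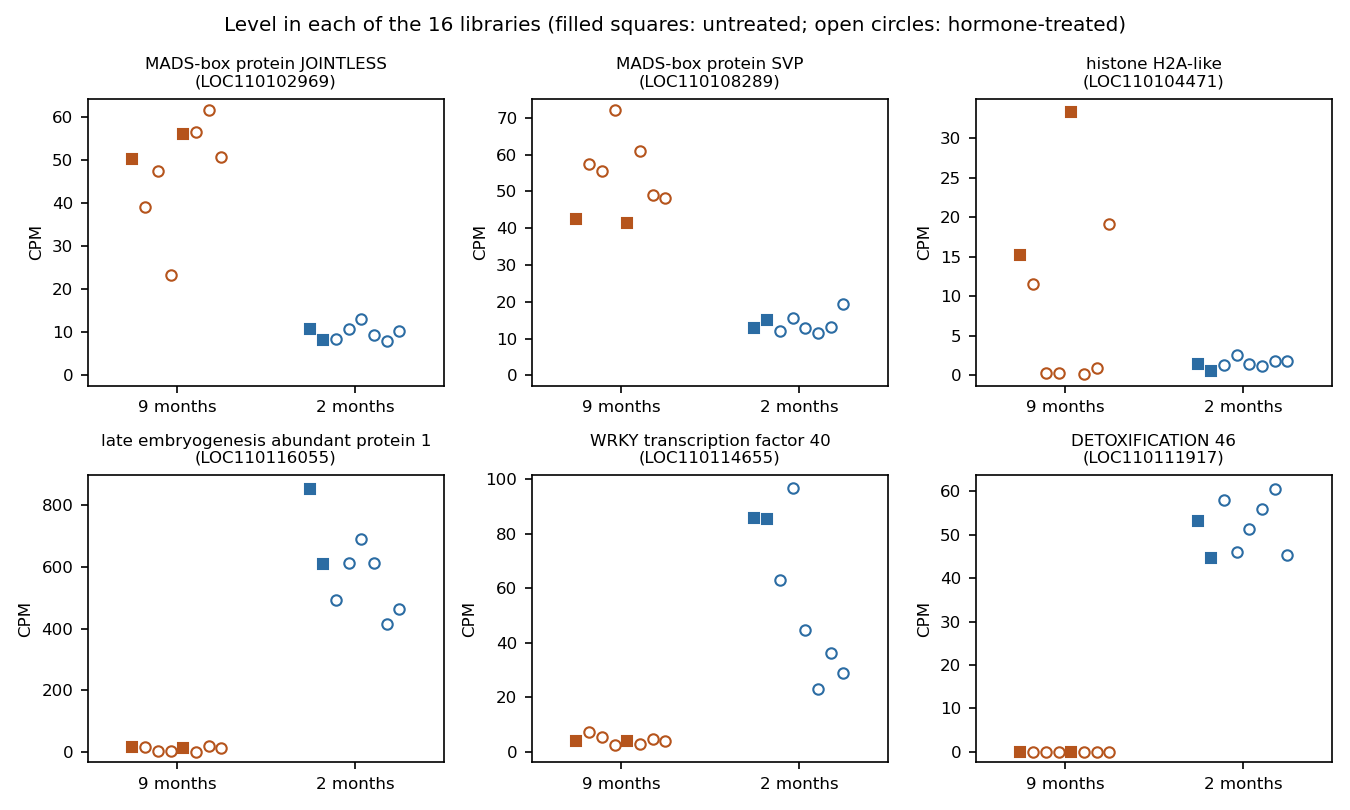
CPM, scaled by TMM over the 16 libraries and on a linear axis from 0, of 6 genes in all 16 libraries, with 9-month libraries left of 2-month libraries, filled squares for untreated and open circles for treated libraries. LOC110111917 is at 0 in all 8 libraries of 9 months and between 44.6 and 60.6 CPM in those of 2 months.

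Single genes varied among the treated libraries. The PYRICULARIA ORYZAE RESISTANCE 21-like gene LOC110108206 ranged from 0 to 364 CPM over the 8 libraries of 9 months, with a median of 85.1 CPM, and had a median of 0.212 CPM at 2 months. The ABP20-like gene LOC110094206 was at or above 327 CPM in all 8 libraries of 9 months and at or below 14.3 CPM in all 8 of 2 months. JOINTLESS (LOC110102969) was at or above 23.4 CPM in the 9-month libraries and at or below 13.2 CPM in the 2-month libraries. WRKY 40 (LOC110114655) had a median of 3.98 CPM over the 9-month libraries and 54.0 CPM over the 2-month libraries. The ages did not overlap in the last 3 genes, while the first was at 0 in at least 1 library of 9 months.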

How the data were processed

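RNA-seq was made from 16 libraries, of which the 4 untreated ones are compared here and 4 given 6-BA at 1.0 mg/L serve as a second comparison. The submitters' processing notes name edgeR, without a version, beside Cufflinks 2.2.2 and HISAT2 2.0.6. No genome build, annotation or strand setting was given in the sources used here. The authors deposited raw counts per gene and FPKM values (fragments scaled by gene length and library depth) in 2 tables, 1 per sequencing experiment. The tables were joined by gene name, 22701 genes of 23063 and 28537 features, and the features of 1 table only were left out. Lengths in the 2 FPKM tables differed by at most 1% for 16011 of 20948 genes. All joined names were found in the RefSeq gene table.

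Counts were filtered with filterByExpr, scaled by TMM and tested with edgeR 4.0.16 and limma 3.58.1 in R 4.3.3 (glmQLFit, glmQLFTest), 2 libraries against 2, with Benjamini-Hochberg adjustment over all genes tested. A call needed an adjusted p under 0.05, a 4-fold difference (2 on the log2 scale) in either direction and non-overlapping CPM and FPKM ranks within the library. The biological coefficient of variation was 0.27 in untreated plantlets and 0.225 with 6-BA. The fits were also run on simulated counts. The outcome is not given here and lends no weight to the calls. FPKM values served for ranks and for the limma alternatives. DESeq2 1.42.0, Python 3.11.15, NumPy 2.4.6, pandas 2.3.3 and Matplotlib 3.10.9 were also used.

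Genes were named by rule: the 10 largest rises and 10 largest falls among called genes with a mean log2 CPM of at least 3 and a description, in each list of at least 3 tested genes the 2 of lowest p, and the 5 genes with the highest mean FPKM at each age. All other genes named were chosen after their values were seen. Lists were drawn by words in the authors' descriptions. The comparison, its members and the lists were chosen with earlier results of these data known. Depth ranged from 15243975 to 40077508 counts in the 4 libraries; intervals and floors of 3 counts cover counting error only. There were 38 lists, the tissue markers included. Alternatives were another normalization, filter, unit, pseudocount, size threshold and gene set, leaving out each library, and a joint fit of 8 libraries.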

Additional observations from a re-analysis of the deposited data

Results flagged for a closer look

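For 6 named genes, the log2 fold change of 9 over 2 months differed between plantlets given 6-BA at 1.0 mg/L and untreated plantlets, by the test of the difference itself over 8 libraries (edgeR's quasi-likelihood test, Benjamini-Hochberg adjustment over 19185 genes). The difference is that with 6-BA minus that without. It was -5.56 for the histone H2A-like gene LOC110104471 (SE 0.99, adjusted p = 0.0468) and -3.40 for histone H4 LOC110106735 (SE 0.28, adjusted p = 0.0065). In both genes the 9-month level was above the 2-month level in untreated plantlets, and the log2 fold change was below 0 with 6-BA, at -0.93 and -1.49. It was 1.95 for the HMG-CoA reductase-like gene LOC110104601 (SE 0.36, adjusted p = 0.0485), whose log2 fold change was -3.32 with 6-BA and -5.27 without. It was 2.10 for the terpene synthase 10-like gene LOC110108050 (SE 0.30, adjusted p = 0.0239), at -0.16 with 6-BA and -2.27 without. It was 2.81 for the gibberellin-regulated protein 11-like gene LOC110103870 (SE 0.48, adjusted p = 0.0429), at -1.37 with 6-BA and -4.18 without. It was 1.22 for the 17.4 kDa class III heat shock gene LOC110097211 (SE 0.17, adjusted p = 0.0251), at -1.52 with 6-BA and -2.74 without. In these 4 genes the fall at 9 months was smaller with 6-BA. All 6 genes were named by their values in the untreated comparison, which enter the difference. A smaller change with 6-BA can therefore follow from how they were chosen. Among all genes tested, 0.281% had a difference above 0 and 1.76% one below 0 at an adjusted p under 0.05. Each group holds 2 libraries, too few to ask whether 1 library stands apart.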

How the results depend on the processing

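No paired analysis was possible because the 9-month libraries carry no replicate numbers, so the arms share fewer than 2. Among the genes named by the rule, none that was called, in the main fit or the alternative, changed sign under any alternative run. Uncalled genes could change sign, as did the RuBisCO small chain gene LOC110109052, whose log2 fold change ranged over -0.05 to 1.20. Genes chosen after their values were seen were not followed in this way. Without either 2-month library no untreated gene was called by edgeR, so the counts ranged over 0 to 437 higher and 0 to 1334 lower when each library was left out; with 6-BA they ranged over 36 to 551 and 147 to 1954. There the lone library of an age is assumed to vary like the other age. In untreated plantlets, genes higher numbered 283 with DESeq2, 62 with log2(FPKM + 1), 207 at a log2 size of at least 1, 213 with no size threshold and 302 in the joint fit of 8 libraries; genes lower numbered 893 with DESeq2, 926 with log2(FPKM + 0.1) and 787 in the joint fit. With 6-BA, genes higher numbered 246 with library size alone, 114 with log2(FPKM + 1), 214 with log2(FPKM + 0.1), 1416 at a log2 size of at least 1 and 2899 with none; genes lower numbered 2293 and 3084 under those size thresholds. The cause of these moves was not tested, apart from the size thresholds and the left-out libraries, which act by construction. Of 65 named genes called, 65 kept their call with DESeq2, with library size alone and with no filter, 64 with log2(FPKM + 0.1), 61 with log2(FPKM + 1) and 0 without either 2-month library; 11 lost it in the joint fit, among them histone H2A-like, S27a, SAUR71-like, ACC oxidase and NAC 68. In untreated plantlets the median log2 fold change of all genes was -0.26 with log2(FPKM + 1) and -0.30 with log2(FPKM + 0.1), against 0.03 with counts. The depth at 9 months limits what a count of 0 shows to a floor of 3 counts per library.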
